A study of Mus musculus with 10 samples.

Results

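Transcripts of 10 chemokine genes were followed in freshly isolated mouse hepatocytes: the CXC chemokines Cxcl1, Cxcl9, Cxcl10, Cxcl12, Cxcl13, Cxcl14 and Cxcl16, the CC chemokines Ccl6 and Ccl9, and the CX3C chemokine Cx3cl1. They were chosen by gene symbol, and all 10 were found among the 21939 genes of the deposited table. Hepatocytes were isolated from male mice 12 days after a single intraperitoneal injection of AAV8Cre, a virus that expresses Cre recombinase under the thyroxine-binding globulin promoter and so in hepatocytes. The age given for the mice was 8 to 9 weeks, without saying whether this was at injection or at isolation. The 4 genotypes were control (C57BL6/j mice without floxed alleles, 3 libraries), Nrf2 KO (floxed Nrf2, 2 libraries), p65 KO (floxed p65, 2 libraries) and DKO (both genes floxed, 3 libraries), with 1 library per mouse. All groups, control included, carried AAV8Cre, and both deletions were aimed at hepatocytes while the other liver cells kept their genes.

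Chemokines are small secreted proteins that guide leukocytes along concentration gradients through G protein-coupled receptors. In the liver, hepatocytes, Kupffer cells, sinusoidal endothelial cells and stellate cells each make some of them, and several inflammatory members are well known targets of NF-κB, whose p65 subunit (gene Rela) was deleted here. Nrf2 (gene Nfe2l2) is the main activator of antioxidant and detoxification genes. Cxcl1 attracts neutrophils, Cxcl9 and Cxcl10 are interferon-induced ligands of CXCR3 on T cells and NK cells, Cxcl12 is the ligand of CXCR4, Cxcl13 directs B cells through CXCR5, and Cxcl16 and Cx3cl1 are made as membrane-bound proteins that bind CXCR6 and CX3CR1. Ccl6 and Ccl9 are rodent CC chemokines that act through CCR1, and Cxcl14 is a chemokine of epithelia and stroma.

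Library totals ran from 33707165 to 49897382 estimated counts. Gene totals of Nfe2l2 were higher, not lower, in both groups with floxed Nrf2 (1990 to 2318 normalized counts in control and 4739 to 5005 in Nrf2 KO), and those of Rela in p65 KO (1183 to 1209) lay close to control (1221 to 1276). Such totals include exons outside a floxed part, so they do not check the labels. A normalized count is the estimated count divided by the library's TMM-scaled size relative to the mean of all libraries. A gene was called changed at an adjusted p of at most 0.05 (edgeR quasi-likelihood test, Benjamini-Hochberg over the 13641 genes tested) and a change of 1 log2 unit or more in either direction. The p-values measure the spread between these mice. Where libraries of groups are described as not overlapping, the share of all genes so separated was not counted.

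The promoters below are printed because the genes belong to the members called changed in some comparison, or, for Cxcl10, because it neighbours Cxcl9 in the chemokine cluster of chromosome 5. Each is the 300 bases before the start of the canonical GENCODE M39 transcript on GRCm39, written 5′ to 3′ on the gene's strand in lower case. Capitals mark matches to the NF-κB consensus site (κB), to the antioxidant response element core TGACNNNGC, or to the STAT-type element TTCNNNGAA, all searched on both strands. For Cxcl12, Cxcl14, Cxcl16 and Ccl9 the canonical start lies inside the annotated gene, and their windows are not shown.
Cxcl1, chr5:91038794-91039093, plus strand: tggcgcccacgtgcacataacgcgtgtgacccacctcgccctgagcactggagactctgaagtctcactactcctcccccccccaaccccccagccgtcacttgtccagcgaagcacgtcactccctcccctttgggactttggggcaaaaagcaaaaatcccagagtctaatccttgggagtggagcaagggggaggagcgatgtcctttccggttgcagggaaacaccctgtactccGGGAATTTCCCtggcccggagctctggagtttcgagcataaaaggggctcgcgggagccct
Cxcl9, chr5:92475946-92476245, minus strand: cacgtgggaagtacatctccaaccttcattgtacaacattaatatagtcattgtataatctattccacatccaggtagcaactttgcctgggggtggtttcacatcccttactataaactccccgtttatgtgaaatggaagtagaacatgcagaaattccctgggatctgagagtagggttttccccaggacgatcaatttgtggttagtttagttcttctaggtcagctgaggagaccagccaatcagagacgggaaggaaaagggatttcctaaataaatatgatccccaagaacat
Cxcl10, chr5:92496749-92497048, minus strand: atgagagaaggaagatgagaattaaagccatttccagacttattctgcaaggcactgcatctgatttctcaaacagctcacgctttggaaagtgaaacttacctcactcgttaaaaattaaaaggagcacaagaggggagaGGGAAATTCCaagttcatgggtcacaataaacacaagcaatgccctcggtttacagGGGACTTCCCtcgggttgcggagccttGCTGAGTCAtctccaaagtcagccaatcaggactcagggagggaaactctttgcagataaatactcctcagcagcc
Ccl6, chr11:83483914-83484213, minus strand: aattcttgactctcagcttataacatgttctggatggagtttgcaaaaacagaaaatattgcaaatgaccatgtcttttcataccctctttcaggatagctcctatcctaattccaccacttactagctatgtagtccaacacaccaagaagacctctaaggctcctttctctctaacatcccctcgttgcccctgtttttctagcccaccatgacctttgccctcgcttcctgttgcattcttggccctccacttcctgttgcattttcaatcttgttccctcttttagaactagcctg
In these windows Cxcl1 held the 10-base κB consensus on both strands, the 2 matches overlapping as GGGAATTTCCC from base 61 to base 51 before the start. Cxcl10 held 2 separate κB matches, GGGAAATTCC starting at base 159 and GGGACTTCCC starting at base 103, and a TGACNNNGC match read on the other strand as GCTGAGTCA. The windows of Cxcl9 and Ccl6 held none of the 3 motifs. Among 21453 protein-coding genes of the table, 4.97% had a κB match in a window of this length, 11.2% a TGACNNNGC match and 9.15% a TTCNNNGAA match. Of the members not printed, Ccl9 held 1 κB match, Cxcl13 1 TGACNNNGC match and Cxcl14 1 TTCNNNGAA match. A match describes the letters only, and no binding was measured here.

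Levels between genes were compared per kilobase of the canonical transcript. In control hepatocytes Cxcl12 stood first at 1112 ± 97.6 normalized counts per kilobase (SD, n = 3) and Ccl9 next at 962 ± 38.2. Cxcl1 followed at 254 ± 35.9, Cxcl9 at 89.3 ± 29.6, Cxcl10 at 54.4 ± 9.22 and Cxcl16 at 16.6 ± 7.93. The control ranges of Cxcl9 (55.3 to 110) and Cxcl10 (43.8 to 60.2) overlapped, although Cxcl9 was the higher in each control library. Ccl6 had 7.26 ± 3.96 and Cxcl14 1.92 ± 0.561, and Cxcl13, at 1.46 ± 1.76, could not be told apart from Cxcl14. Cx3cl1 was at the floor, here taken as at most 3 counts in every library of a group: its counts were 2, 0 and 1 in control, 0 and 0 in Nrf2 KO, 1 and 2 in p65 KO, and 0 in each of each DKO library. It did not reach the minimum of 10 counts over all libraries and was not tested, so 9 of the 10 members entered the comparisons.

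**Figure D1:**
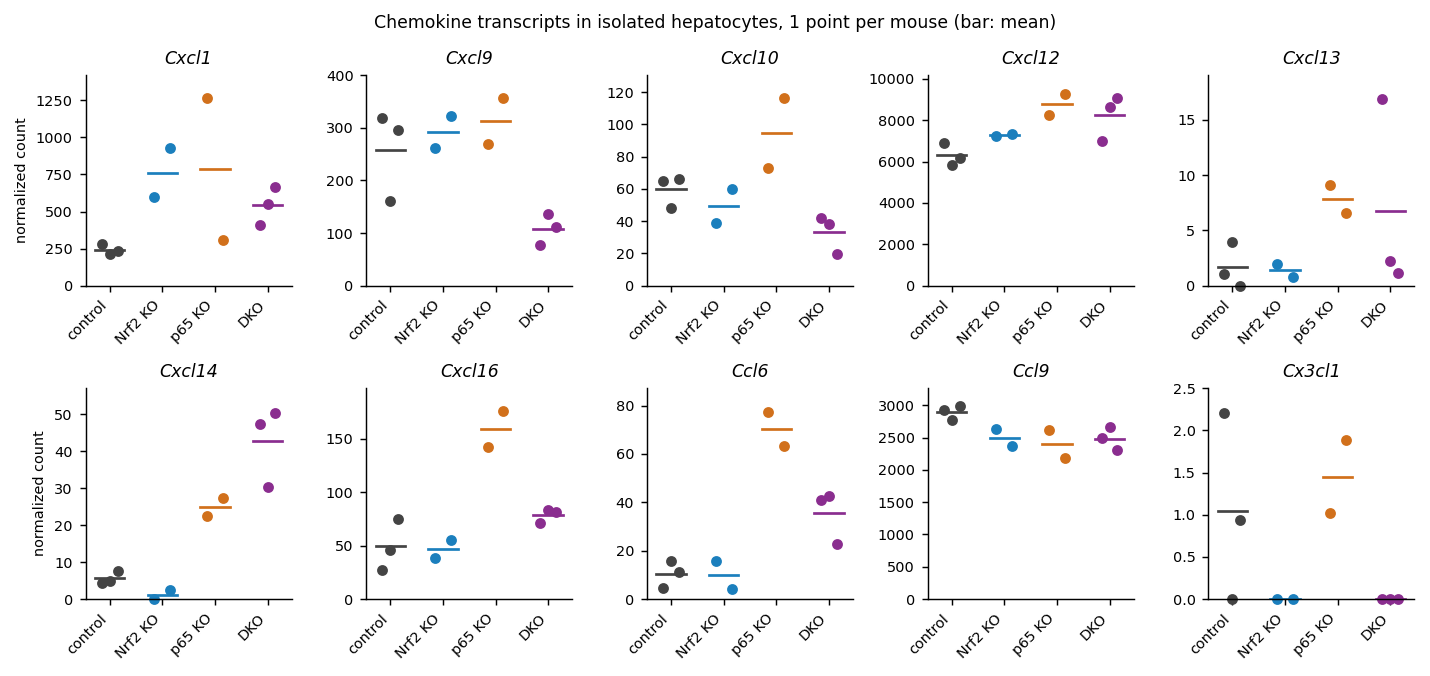
Normalized counts (vertical axes, linear and starting at 0) of the 10 chemokine genes in the 4 genotypes, with 1 point per mouse and a bar at the group mean. The p65 KO points of Ccl6 (63.3 and 77.2) and Cxcl16 (142 and 176) lie above all other libraries, the DKO points of Cxcl9 (76.8 to 136) lie below all others, and Cx3cl1 stays at or below 2.21 throughout.

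Loss of p65 alone gave the largest number of called chemokines. Of the 9 tested members, 4 were called higher in p65 KO than in control and 0 lower, where 5.05% of all genes tested were called higher. The 4 were Ccl6, Cxcl14, Cxcl1 and Cxcl16. The members had been picked with results of these data known, so the share describes them and is no test. DESeq2 also called 4 members in this comparison.

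Ccl6, a chemokine of myeloid cells, had 4.42, 15.7 and 11.2 normalized counts in control and 77.2 and 63.3 in p65 KO. The p65 KO libraries lay far above control, and above the 15.8 and 4.04 of Nrf2 KO and the 41.0, 42.6 and 22.9 of DKO. The log2 fold change over control was 2.72 ± 0.60 (SE), or 6.60-fold (adjusted p = 0.0156, edgeR). Without control replicate 1 the adjusted p was 0.0512, and without p65 KO replicate 1 it was 0.0986. In DKO all 3 libraries also exceeded the 3 control libraries, but the log2 fold change of 1.74 ± 0.56 did not pass (adjusted p = 0.10, with 0.0296 by DESeq2). DKO and p65 KO differed by -0.98 on the log2 scale, with a 95% interval from -2.22 to 0.26 (adjusted p = 0.33, edgeR).

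Cxcl16, the transmembrane ligand of CXCR6, had 27.6, 46.2 and 74.7 normalized counts in control, 38.6 and 55.0 in Nrf2 KO, 142 and 176 in p65 KO, and 71.5, 83.0 and 81.2 in DKO. The p65 KO libraries stood apart from every other library, whereas DKO overlapped control through control replicate 3. It rose 3.19-fold in p65 KO (log2 1.67 ± 0.36, adjusted p = 0.0141, edgeR). Leaving out p65 KO replicate 1 gave an adjusted p of 0.0598 and leaving out p65 KO replicate 2 gave 0.069. The difference of DKO from control was 0.66 on the log2 scale (adjusted p = 0.273), and that of DKO from p65 KO was -1.02 (adjusted p = 0.131, edgeR).

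Cxcl14 had 4.42, 4.92 and 7.47 normalized counts in control, 0 and 2.42 in Nrf2 KO, 22.4 and 27.4 in p65 KO, and 47.3, 30.3 and 50.3 in DKO. No 2 neighbouring groups overlapped in the order Nrf2 KO, control, p65 KO, DKO. That order was read from these values, and the share of all genes with some such order was not counted. It was called in p65 KO (log2 2.12 ± 0.63, 4.34-fold, adjusted p = 0.0449, edgeR) and in DKO (log2 2.89 ± 0.59, 7.43-fold, adjusted p = 0.0207, edgeR). Of the 9 tested members, 1 was called higher in DKO than in control (Cxcl14), where the share over all genes was 1.36%. The difference between DKO and p65 KO, 0.77 on the log2 scale with a 95% interval from -0.52 to 2.07, did not pass (adjusted p = 0.464, edgeR).

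The counts behind Cxcl14 were few: 17 over the control libraries, 3 over Nrf2 KO, 51 over p65 KO and 116 over DKO. Nrf2 KO was thus at the floor, with all 3 counts from replicate 2. The ratio of DKO to Nrf2 KO was 32.0 with an exact 95% counting interval from 10.7 to 158, which leaves out the spread between mice. The edgeR log2 fold change was 4.91 with a 95% interval from 3.10 to 6.71. Cxcl14 was the single member called higher in DKO than in Nrf2 KO (adjusted p = 0.0266, edgeR), where 0.293% of all genes were. The ratio of Nrf2 KO to control was 0.235, with a counting interval from 0.0441 to 0.812 that covers counting error only, while the test between mice gave an adjusted p of 0.487. The p65 KO call held in 2 of the 10 fits that left out a single library, with adjusted p up to 0.153. It was lost without any 1 control, p65 KO or DKO library, with 0.124, 0.104 and 0.0694 without control replicates 1 to 3, 0.145 and 0.153 without p65 KO replicates 1 and 2, and 0.0578, 0.0506 and 0.0548 without DKO replicates 1 to 3. The DKO call over control was lost without control replicate 1 (0.0818), control replicate 2 (0.0695) or DKO replicate 1 (0.052). The call over Nrf2 KO held in 4 of 10 such fits, and it was lost without Nrf2 KO replicate 1 (0.14), Nrf2 KO replicate 2 (0.0573), p65 KO replicate 1 (0.0516), p65 KO replicate 2 (0.0558), DKO replicate 1 (0.0552) or DKO replicate 3 (0.0521), and with those 2 genotypes alone in the fit (0.12).

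Cxcl1, the neutrophil attractant, had 280.5, 212 and 237 normalized counts in control, 595 and 927 in Nrf2 KO, 1265 and 310 in p65 KO, and 411, 551 and 665 in DKO. Every library with a deletion lay above the 3 control libraries, and the p65 KO libraries lay far apart from each other. The gene was called in p65 KO (log2 1.69 ± 0.45, 3.23-fold, adjusted p = 0.030, edgeR), and that call rested on 1 mouse: without p65 KO replicate 1 the log2 fold change was 0.35 (adjusted p = 0.559). It was also lost without control replicate 1 (0.0697), 2 (0.0829) or 3 (0.0738), and with limma on log2(normalized count + 1) the adjusted p was 0.067. A change of nearly the same size in Nrf2 KO, 1.65 ± 0.44 on the log2 scale, did not pass (adjusted p = 0.194, edgeR), nor did the 1.16 ± 0.41 of DKO (adjusted p = 0.131, edgeR). In the fits without p65 KO replicate 1 or 2, the Nrf2 KO change of Cxcl1 passed (adjusted p = 0.0195 and 0.019), as it did with control and Nrf2 KO alone (0.0153), and in those without a p65 KO library Cxcl1 was called in DKO too.

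**Figure D2:**
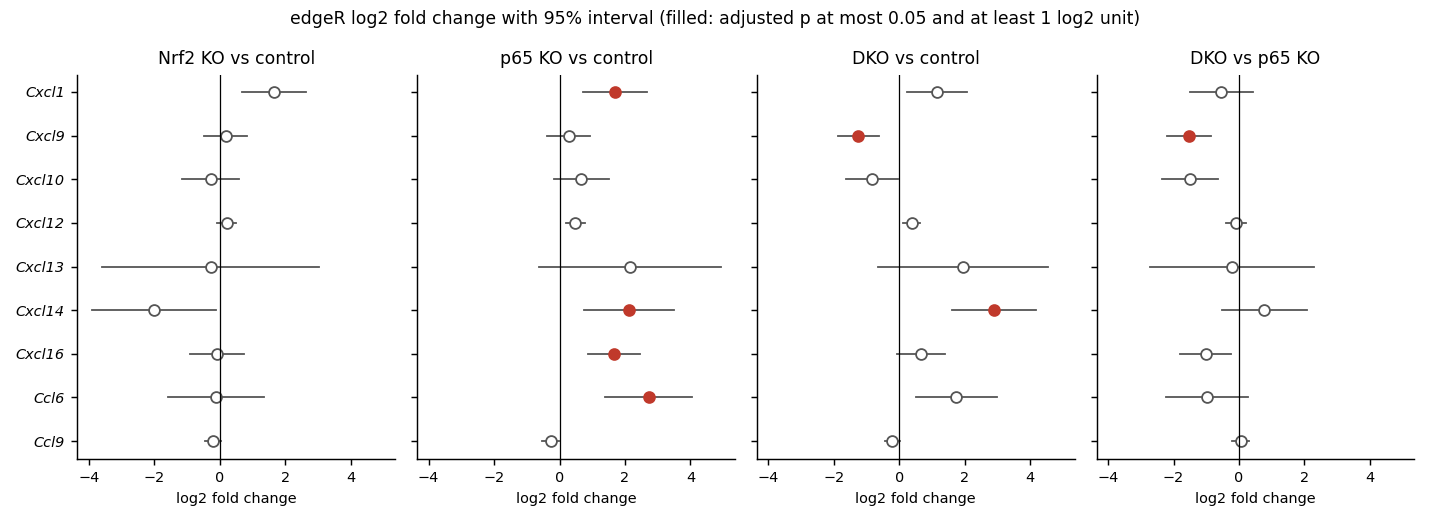
Log2 fold changes (horizontal axes) of the 9 tested chemokine genes in 4 comparisons, with points at the edgeR estimate and lines for the 95% interval. Filled points passed both criteria: Cxcl1, Cxcl14, Cxcl16 and Ccl6 above 0 in p65 KO, Cxcl14 above and Cxcl9 below 0 in DKO against control, and Cxcl9 below 0 in DKO against p65 KO.

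Cxcl9 was the one member called lower. It had 319, 160.3 and 296 normalized counts in control, 262 and 322 in Nrf2 KO, 269 and 357 in p65 KO, and 76.8, 136 and 112 in DKO. The DKO libraries lay below all 7 others, while control and the single KO groups overlapped. The fall against control was 2.39-fold (log2 -1.26 ± 0.28, adjusted p = 0.0293, edgeR), and 1.02% of all genes tested were called lower in that comparison. Against p65 KO the fall was 2.90-fold (log2 -1.53 ± 0.31, adjusted p = 0.0242, edgeR), with Cxcl9 the 1 of 9 tested members called lower beside 0.968% of all genes. Against Nrf2 KO the log2 difference of -1.43 ± 0.31 did not pass with edgeR (adjusted p = 0.0814) and passed with DESeq2 (0.00217). Among all genes called, 57.2% were higher in DKO than in control (46.4% when scaled by library totals alone) and 45.7% were higher in DKO than in p65 KO (17.1% by library totals), and Cxcl9 was called lower in both comparisons under either scaling.

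The DKO call of Cxcl9 over control was lost without control replicate 1 (adjusted p = 0.112), control replicate 3 (0.0802), DKO replicate 1 (0.0856) or DKO replicate 3 (0.0637), and with those 2 genotypes alone in the fit (0.0653, edgeR). The call over p65 KO was lost without p65 KO replicate 1 (0.0779), p65 KO replicate 2 (0.134) or DKO replicate 1 (0.0794), and with 2 genotypes alone (0.0582). In each of these fits the log2 fold change stayed between -1.72 and -1.06.

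Cxcl10, the other CXCR3 ligand of this cluster, had 65.2, 48.2 and 66.3 normalized counts in control, 38.6 and 59.8 in Nrf2 KO, 73.1 and 116 in p65 KO, and 42.1, 38.2 and 19.5 in DKO. DKO lay below control and p65 KO without overlap and overlapped Nrf2 KO. Its log2 differences of -0.84 from control (adjusted p = 0.197) and -1.51 from p65 KO (adjusted p = 0.057, edgeR) were not called, although DESeq2 called the second (0.00761).

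Whether the effect of one deletion differed with the other was asked by the interaction term, the change from p65 KO to DKO minus that from control to Nrf2 KO. No member was called in it with edgeR, where 0.455% of all genes were, although 4 of 9 members had an unadjusted p under 0.05, as had 1888 of the 13641 genes, and DESeq2 called 1, Cxcl9. For Cxcl9 the term was -1.71 ± 0.43 on the log2 scale (adjusted p = 0.124 with edgeR and 0.0137 with DESeq2), and for Cxcl1 it was -2.18 ± 0.62 (adjusted p = 0.174, edgeR). In Nrf2 KO against control no member was called either, against 0.55% of all genes, with 2 of 9 members and 1279 of the 13641 genes under an unadjusted p of 0.05, and 0 members called by DESeq2.

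The 2 most abundant members were not called in any comparison. Cxcl12, the homeostatic ligand of CXCR4, had 6905, 5817 and 6191 normalized counts in control, 7214 and 7339 in Nrf2 KO, 8259 and 9276 in p65 KO, and 6997, 8626 and 9065 in DKO, and all libraries with a deletion lay above all 3 control libraries. In p65 KO it passed the adjusted p (0.037, edgeR) at a log2 fold change of 0.48 ± 0.13, under the fold threshold, and it stayed at or under 0.05 in 3 of the 10 fits without 1 library (0.0244 to 0.167). Its log2 fold change of 0.38 ± 0.12 in DKO had an adjusted p of 0.091. Ccl9 had 2932, 2767 and 2989 in control, 2631 and 2371 in Nrf2 KO, 2617 and 2178 in p65 KO, and 2492, 2664 and 2305 in DKO, so every library with a deletion lay under the control libraries. Its log2 fold changes against control ran from -0.27 to -0.21, with adjusted p from 0.136 to 0.654. Its 95% interval in p65 KO, -0.53 to -0.02, leaves no room for a change of 1 log2 unit. For Cxcl1, Cxcl12 and Ccl9, the share of all genes with every deletion library on the same side of control was not counted.

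Cxcl13, the B cell attractant, had estimated counts of 1, 4 and 0 in control, 2 and 1 in Nrf2 KO, 9 and 7 in p65 KO, and 16, 2 and 1 in DKO. The p65 KO libraries lay above control, and DKO replicate 1 stood apart from the other DKO libraries. Nrf2 KO was at the floor, and the gene met the count minimum only through p65 KO and DKO. Its log2 fold change in p65 KO, 2.15 ± 1.26, had an adjusted p of 0.268 (edgeR), so no difference was detectable at this depth.

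Markers of other liver cells differed between the genotypes in the same direction as several of these chemokines. In p65 KO, 12 of 12 Kupffer cell markers, 10 of 10 sinusoidal endothelial cell markers and 8 of 10 stellate cell markers were called higher than in control, as were 3 of 9 tested markers of monocytes and dendritic cells, beside 5.05% of all genes tested. In DKO these counts were 6, 1, 1 and 1, beside 1.36% of all genes tested. DESeq2 called 8, 5, 2 and 2 higher there, and 1 marker of the last list lower. Without adjustment, 12, 8, 6 and 5 markers had a p under 0.05 in either direction (edgeR). Of the markers called higher in p65 KO, Col1a1, Hand2, Ccr2 and Itgax met the count minimum only through p65 KO and DKO. The summed Kupffer cell markers were 368 to 957 normalized counts in control, 254 to 814 in Nrf2 KO, 4516 to 6190 in p65 KO and 1715 to 2905 in DKO. The sinusoidal endothelial sum was 734 to 1621 in control, 1013 to 1891 in Nrf2 KO, 3899 to 5254 in p65 KO and 2120 to 2926 in DKO. Stellate cell markers summed to 183 to 393, 171 to 285, 1921 to 1975 and 350 to 916 in the same order.

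Monocyte and dendritic cell markers summed to 165 to 334 in control, 161 to 244 in Nrf2 KO, 614 to 748 in p65 KO and 312 to 424 in DKO. Most of the p65 KO and DKO sums was Lyz2, at 421.5 to 506 and 220 to 328 against 61.8 to 141 in control. Zbtb46 lay at 128.5 and 147 in p65 KO but at 42.1 to 64.1 in DKO, below the 85.9 to 175 of control. No other marker of this list exceeded 29.2 in any library. Neutrophil markers summed to 2.80 to 6.88 in control, 6.92 to 8.08 in Nrf2 KO, 11.3 to 53.8 in p65 KO and 8.01 to 37.9 in DKO, every p65 KO and DKO library lying above control, and 1 of 4 tested markers, Csf3r, was called higher in p65 KO (adjusted p = 0.034, edgeR). Csf3r met the count minimum only through p65 KO and DKO. Ly6g, the defining marker of neutrophils, was at 0 in all 10 libraries. T and NK cell markers summed to 14.0 to 36.4 in control, 61.4 to 63.3 in Nrf2 KO, 37.6 to 37.8 in p65 KO and 70.9 to 159 in DKO, the highest group. Most of the Nrf2 KO and DKO sums was Cd4, at 62.3 and 58.2 in Nrf2 KO and 138.9, 75.2 and 64.1 in DKO. No other marker of this list exceeded 9.47 normalized counts in any library, so the order of the sums is largely that of Cd4. Of the 5 tested, Cd4 was called higher in DKO than in control (adjusted p = 0.0229, edgeR) and than in p65 KO (adjusted p = 0.0341, edgeR). B cell markers summed to 0.983 to 2.80 in control, 2.97 to 3.23 in Nrf2 KO, 2.84 to 14.2 in p65 KO and 4.58 to 8.42 in DKO. Cholangiocyte markers summed to 151 to 444 and none of 3 tested was called in p65 KO (0 with an unadjusted p under 0.05, 0 with DESeq2). Nearly all of that sum was Sox9 and Spp1, while Krt7, Krt19, Epcam and Cftr had at most 9.34 normalized counts in any library. Hepatocyte markers summed to 3435440 to 5477600 normalized counts, most of it Alb, and none of the 10 was called in p65 KO (3 with an unadjusted p under 0.05, 0 with DESeq2). In DKO, Tat was called higher than in control (log2 1.62) and than in p65 KO (log2 1.89), and Cyp2e1 lower than in p65 KO (log2 -1.06). In bulk RNA of an isolate, fewer cells of a type and less RNA per cell cannot be told apart.

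**Figure D3:**
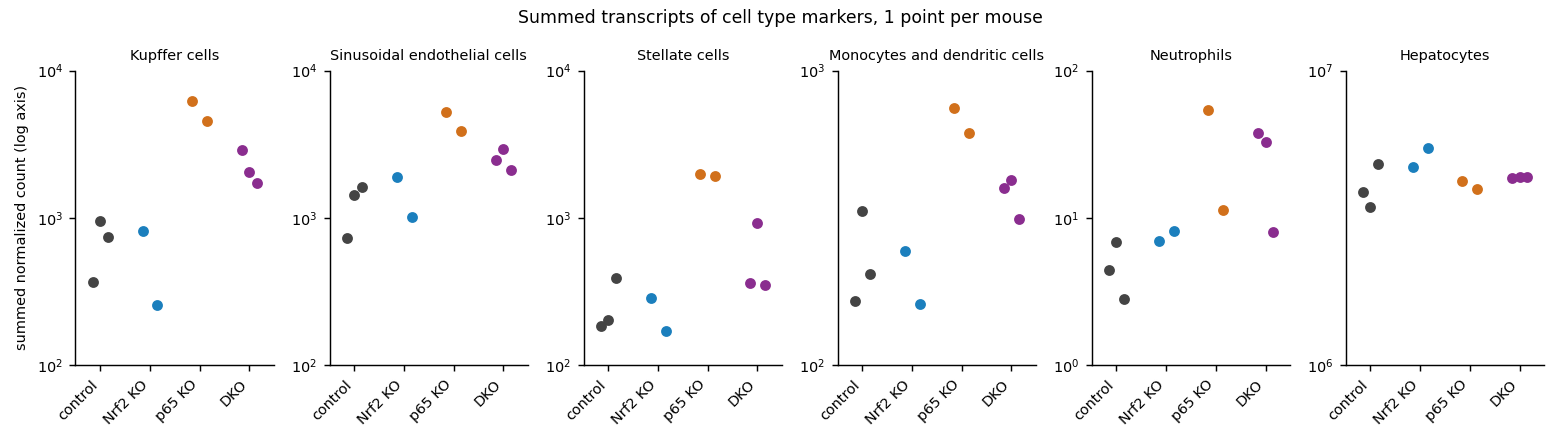
Summed normalized counts of 6 lists of cell type markers (vertical axes logarithmic), 1 point per mouse, in the 4 genotypes. Kupffer, sinusoidal endothelial, stellate and monocyte sums of both p65 KO libraries lie above every other library, and the hepatocyte sums of p65 KO and DKO lie within the control range.

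Set against these sums, the chemokines fell into distinct patterns. Ccl6 amounted to 1.20 to 1.64 counts per 100 Kupffer cell marker counts in control, 1.59 to 1.94 in Nrf2 KO, 1.25 to 1.40 in p65 KO and 1.33 to 2.09 in DKO, and the control range overlapped each of the others although Ccl6 itself was 6.60-fold higher in p65 KO. Cxcl16 amounted to 3.22 to 4.61 counts per 100 sinusoidal endothelial marker counts in control, 2.04 to 5.43 in Nrf2 KO, 2.71 to 4.51 in p65 KO and 2.84 to 3.83 in DKO, while per 100 Kupffer cell marker counts it was 4.83 to 10.1 in control and 2.30 to 3.89 in p65 KO. Cxcl14 per 100 stellate marker counts was 1.90 to 2.44 in control, 0 to 1.42 in Nrf2 KO, 1.13 to 1.43 in p65 KO and 3.31 to 14.4 in DKO, so that the DKO libraries lay above the others on this scale too. Per 100 sinusoidal endothelial marker counts, Cxcl14 was 0.343 to 0.602 in control, 0 to 0.239 in Nrf2 KO, 0.425 to 0.703 in p65 KO and 1.04 to 2.37 in DKO. There p65 KO overlapped control. Cxcl9 was lowest in DKO, where the sums of these lists exceeded those of control or overlapped them. The ratios were formed after the marker sums had been seen. The part of other cells in the chemokine differences was not tested.

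**Figure D4:**
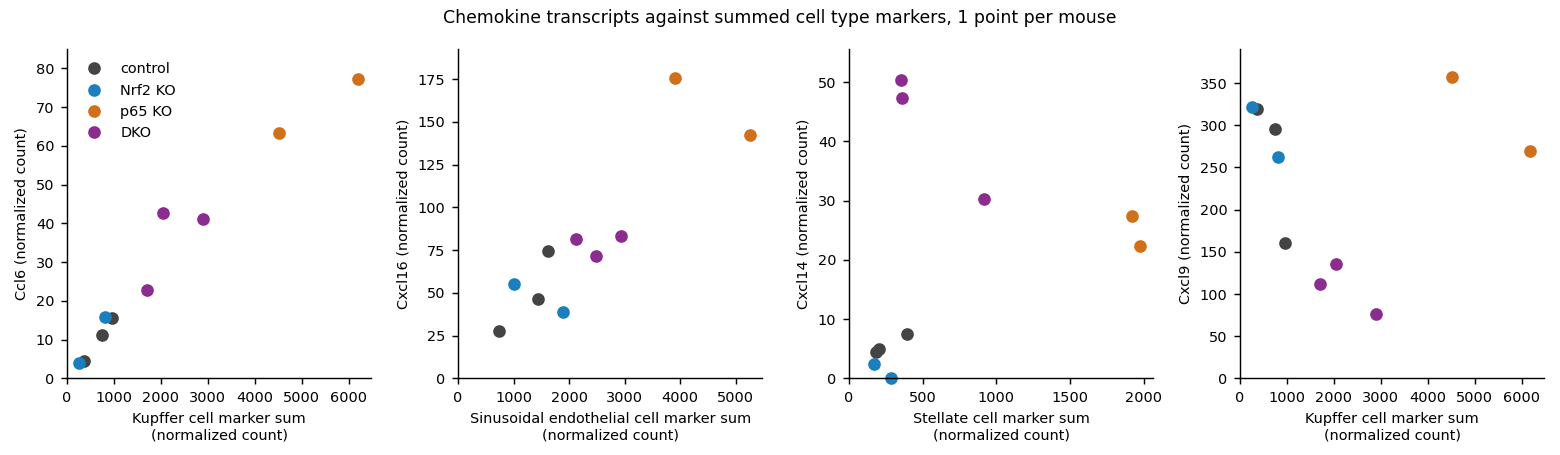
Normalized counts of 4 chemokines (vertical axes) against the summed markers of a cell type (horizontal axes), both linear and starting at 0, 1 point per mouse. Ccl6 is higher in libraries with a larger Kupffer cell sum, whereas the DKO libraries stand apart at high Cxcl14 with stellate sums of 350 to 916 and at low Cxcl9 with Kupffer sums of 1715 to 2905.

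For each called member, the genes with the most similar pattern were taken as those with the highest Pearson correlation of log2(normalized count + 1) over the 10 libraries, among 10179 genes with a mean of at least 50. The libraries share depth and genotype, and these correlations describe them without a test. Ccl6 ran closest to Lyz2 (r = 0.994), the lysozyme gene of macrophages, to C1qa (0.990), a complement component made by macrophages and one of the Kupffer cell markers above, and to Tinagl1 (0.987). Cxcl14 ran close to Galns (0.947) and Masp2 (0.924). The closest genes to Cxcl16 were Dst (0.968), Tagap1 (0.953) and Pak2 (0.951), and those to Cxcl9 were Ces1c (0.956), Pgm1 (0.946) and Tcf24 (0.941). Cxcl1 had the weakest matches, with Ric8a (0.923), Plxnb1 (0.921) and Ephb4 (0.891).

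Of 31 other chemokine ligands, 29 were in the table and 10 had enough counts to be tested. None was called in any of the 6 comparisons with edgeR. In p65 KO against control 3 had an unadjusted p under 0.05 and DESeq2 called 1, and in the 5 other comparisons at most 1 was under 0.05 and DESeq2 called 0. Of 23 chemokine receptors, all in the table, 14 were tested, and 2 were called, both higher in p65 KO, beside 5.05% of all genes. Ccr2, the receptor of inflammatory monocytes, had 0, 0.983 and 0 normalized counts in control, 1.98 and 0.808 in Nrf2 KO, 26.4 and 6.62 in p65 KO, and 4.21, 11.2 and 2.29 in DKO, with a log2 fold change of 5.18 ± 1.23 in p65 KO (adjusted p = 0.0203, edgeR). Control held 1 count of it in all, so the size of that fold change is uncertain. Ccr2 met the count minimum only through p65 KO and DKO, so its place among the tested receptors depended on the groups where it was high. Ackr4, a scavenging receptor of CC chemokines, had 2.21, 3.93 and 4.67 in control, 7.91 and 3.23 in Nrf2 KO, 38.6 and 9.45 in p65 KO, and 5.26, 12.3 and 5.72 in DKO (log2 2.68 ± 0.79 in p65 KO, adjusted p = 0.0453, edgeR). For both, p65 KO replicate 1 held the highest value.

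The members lie on 5 chromosomes of GRCm39, and some are neighbours. Cxcl1 (chr5:91039094-91040974, plus strand), Cxcl9 (chr5:92469206-92475945, minus strand), Cxcl10 (chr5:92494497-92496748, minus strand) and Cxcl13 (chr5:96104810-96108927, plus strand) share chromosome 5. Ccl9 (chr11:83463745-83473161) and Ccl6 (chr11:83478708-83483913) lie side by side on the minus strand of chromosome 11, which also holds Cxcl16 (chr11:70344517-70352620, minus strand). Cxcl12 lies at chr6:117144945-117158328 (plus strand), Cxcl14 at chr13:56436352-56444603 (minus strand) and Cx3cl1 at chr8:95498637-95509055 (plus strand). Of the neighbours Ccl6 and Ccl9, Ccl6 was called higher in p65 KO (log2 2.72) and Ccl9 was not called (log2 -0.27, adjusted p = 0.136, edgeR), and the difference between the genes was not tested. Of the 31-base words of each canonical transcript, 5.60% in Ccl9 and at most 1.28% in the other members also occur in transcripts of another gene, so that little of their counts could be shared with a near-identical copy.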

How the data were processed

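RNA was sequenced from hepatocytes isolated by Liberase perfusion and Percoll, with stranded TruSeq libraries. The deposited table holds estimated counts per gene that the authors made with Salmon 1.10.3 on GRCm39 and GENCODE M33; although named normalized, its totals differ between libraries, and its values were treated as estimated (expected) counts and rounded to whole numbers. The authors' own tests used DESeq2 1.42.1. Genes were named with GENCODE M39. Genes with at least 10 counts over all libraries were tested with edgeR 4.0.16 (TMM, quasi-likelihood, all 4 genotypes in 1 fit, R 4.3.3), adjusted by Benjamini-Hochberg within each comparison, and alternatives used DESeq2 1.42.0 and limma 3.58.1. SE is the log2 fold change divided by the square root of F. The script was tested on simulated data. No replicates were copies: the chi-square per degree of freedom between libraries of a group was 44.8 or more. Every member is described; other ligands and receptors are named where called, and marker lists are given as sums and counts. Members and lists were chosen with earlier results of these data known. One gene that the naming rule selects is not reported here.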

Additional observations from a re-analysis of the deposited data

Results flagged for a closer look

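By the order of the libraries, Cxcl14 lay lower after Nrf2 loss with p65 present and higher with p65 also lost. Neither difference passed (adjusted p = 0.487 for Nrf2 KO against control and 0.464 for DKO against p65 KO, edgeR). The share of all genes with such opposite separation was not counted. Both Nrf2 KO libraries (0 and 2.42 normalized counts) lay below the 3 control libraries (4.42 to 7.47), whereas the 3 DKO libraries (30.3 to 50.3) lay above both p65 KO libraries (22.4 and 27.4). The interaction term was 2.79 ± 1.04 on the log2 scale and did not pass (adjusted p = 0.283, edgeR, with 0.181 by DESeq2). Nrf2 KO held 3 counts of the gene in all. The groups of 2 and 3 libraries were too small for a test of single outlying libraries.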

How the results depend on the processing

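Of 1064 member values recomputed under 20 alternatives, 1004 were called or not called as in the reported fit, 43 lost and 17 gained a call, and none that passed an adjusted p of 0.05 in either fit changed sign. With DESeq2 the genes called numbered 135 against 75 in Nrf2 KO, 541 against 325 in DKO, 453 against 243 in DKO against p65 KO (2 members against 1), 292 against 59 in DKO against Nrf2 KO (2 members against 1) and 249 against 62 in the interaction (1 member against 0). Scaling by library totals shifted the median gene by 0.18 log2 units in p65 KO against control and by -0.27 in DKO against p65 KO, where it called 504 genes and 3 members, and it called 118 genes in the interaction, 22.9% of them higher against 58.1%. Without a count filter DKO against p65 KO gave 2 members, DKO against Nrf2 KO 2 members and 112 genes, and the interaction 137 genes. With limma on log2(normalized count + 10) DKO against p65 KO gave 2 members and 365 genes. With 2 genotypes alone in the fit, the members called were 1 in Nrf2 KO, 0 in DKO against p65 KO and 0 in DKO against Nrf2 KO, and the genes called were 215 in DKO against control, 105 against p65 KO and 18 against Nrf2 KO. The cause of these changes was not tested.

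Leaving out 1 library at a time gave, as lowest and highest counts, 0 to 1 members and 18 to 84 genes in Nrf2 KO, 0 to 4 members and 325 to 954 genes in p65 KO, 0 to 3 members and 147 to 316 genes in DKO, 0 to 1 members and 70 to 294 genes in DKO against p65 KO, 0 to 2 members and 18 to 81 genes in DKO against Nrf2 KO, and 0 to 1 members and 8 to 119 genes in the interaction. Without p65 KO replicate 1, none of the 4 members of the p65 KO comparison was called (0 with edgeR), and a lone remaining p65 KO library is assumed to vary like the other groups. Same-numbered libraries of different genotypes correlated between -0.23 and 0.11 in their deviations from the group means, with 1 of 13 pairs over 0.1, so the numbers were not taken to pair the mice. With a replicate block, 1 member was called in p65 KO (Cxcl16), 1 in DKO (Cxcl14), 0 in DKO against p65 KO and 0 in DKO against Nrf2 KO, where 37 genes were called.

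Depth limits Cx3cl1, Cxcl13 and Cxcl14, whose counts were at most 45 in any library, and groups of 2 and 3 mice limit all members.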
